A study of Mus musculus with 6 samples.

Results

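The respiratory chain and the ATP synthase were followed in 2H11 cells at the level of their messenger RNAs. Members were chosen by name: the Nduf, Sdh, Uqcr, Cox4 to Cox8 and Atp5 families, Cyc1, and the mt-Nd, mt-Co, mt-Cytb and mt-Atp genes. This gave 105 members of the 11754 genes with deposited values, of which 92 are encoded in the nucleus and 13 in mitochondrial DNA. The names also bring in 12 assembly factors, and Cox7a2l, Ndufa4l2 and Atp5s, which are not counted as subunits here.

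2H11 is an established mouse cell line that the labels call endothelial, with axillary lymph node and vascular epithelium as its source and C3H/HeJ as its strain. All cells were starved, and were then kept for 48 h either without further treatment (3 untreated samples) or with BMP4 (3 BMP4 samples), a secreted bone morphogenetic protein whose dose the labels do not give. Of 12 endothelial markers, 4 had values (Flt1, Eng, Cd34 and Egfl7), and Pecam1, Cdh5, Kdr and Tek were not analysed here. All 6 fibroblast markers had values, with a summed level of 2673 to 2727 FPKM in untreated and 1452 to 1462 FPKM in BMP4 samples; 2 of them were called higher and 4 lower (limma, adjusted p below 0.05). The summed level of the 4 endothelial markers was 68.5 to 75.4 FPKM in untreated and 43.4 to 43.9 FPKM in BMP4 samples. Of these markers, 1 was called higher and 1 lower. Among all tested genes, 13.6% were called higher and 14.3% lower. The part of these marker shifts in the results was not tested. FPKM are fragments per kilobase of transcript, scaled to the size of the library. The number of reads behind each value is unknown. Whether replicates were separate cultures is not in the labels, and the p-values cover no more than the scatter among these 6 samples. The RNA is from whole cultures, so fewer cells of a kind and less RNA per cell cannot be told apart.

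The respiratory chain sits in the inner mitochondrial membrane. Complexes I and II pass electrons from NADH and succinate to ubiquinone, complex III passes them on to cytochrome c, and complex IV gives them to oxygen. Complexes I, III and IV pump protons, and complex V, the ATP synthase, lets them flow back to make ATP. Complex II is built from nuclear genes alone, whereas the others combine nuclear subunits with subunits read from mitochondrial DNA. Endothelial cells are known to draw much of their ATP from glycolysis.

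In mitochondrial DNA the genes lie end to end, and some overlap on the same strand, which bears on how their levels can be read. The first bases of mt-Atp6 are also the last bases of mt-Atp8: chrM:7927-7969 of GRCm38, plus strand, is exonic in both. These 43 shared bases are 21.1% of mt-Atp8 and 6.31% of mt-Atp6. mt-Nd4l and mt-Nd4 share 7 bases at chrM:10167-10173, plus strand. Both stretches follow from GENCODE transcripts, 5′ to 3′, with 15 flanking bases on each side in lower case and the shared bases in capitals.
mt-Atp8 into mt-Atp6 (chrM:7912-7984): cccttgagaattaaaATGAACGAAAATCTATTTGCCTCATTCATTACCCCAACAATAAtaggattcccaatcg
mt-Nd4l into mt-Nd4 (chrM:10152-10188): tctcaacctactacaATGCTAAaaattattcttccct
mt-Atp6 also shares 1 base with mt-Co3, and mt-Nd5 shares 14 bases with mt-Nd6, which lies on the opposite strand. Fragments that fall in a shared stretch could be counted for either gene, and the sources used here do not give how they were divided.

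With BMP4, 13 of the 104 tested members were lower and 0 were higher (limma, adjusted p below 0.05). Cox7a1 was the member left untested, with a mean under 1 FPKM. Among all 10932 tested genes, 14.3% were lower and 13.6% were higher, so the 12.5% of members called lower is close to the background. At an unadjusted p below 0.05, 31 members were lower and 1, Sdhaf1, was higher. The share of all tested genes at that threshold is not given here. Counts at an unadjusted p, here and below, therefore have no background to be read against. The changes were small: no member reached a log2 fold change of 0.5 in either direction, which 10.4% of all tested genes did. All log2 fold changes were fitted to log2(FPKM + 1), which understates the change of low genes.

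The log2 fold change was below 0 in 89 of 104 members, against 50.2% of all tested genes. Its median was -0.14 over the members and -0.00 over all tested genes. In 29 members (27.9%) all BMP4 samples lay below all untreated samples, against 23.1% of all tested genes. In 1 member, Sdhaf3, all BMP4 samples lay above, against 22.4% of all tested genes.

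The members moved together from sample to sample, also within a group. Untreated 1 was the highest of its group in 90 of 104 members, and BMP4 3 was the highest of its group in 83. The median member lay 0.11 above its untreated mean on the log2 scale in untreated 1, and at -0.02 and -0.09 in untreated 2 and 3. It lay at -0.17 and -0.18 in BMP4 1 and 2, and at -0.04 in BMP4 3. The groups therefore overlapped: BMP4 3 was above untreated 3. The median over genes outside the members stayed between -0.01 and 0.02 in all 6 samples. The sum of FPKM over those genes was 246599, 237179 and 233796 in untreated and 230866, 230002 and 239617 in BMP4 samples. By that sum, untreated 1 and BMP4 3 were the highest of their groups outside the members as well. What sets untreated 1 and BMP4 3 apart from their groups was not tested.

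**Figure D1:**
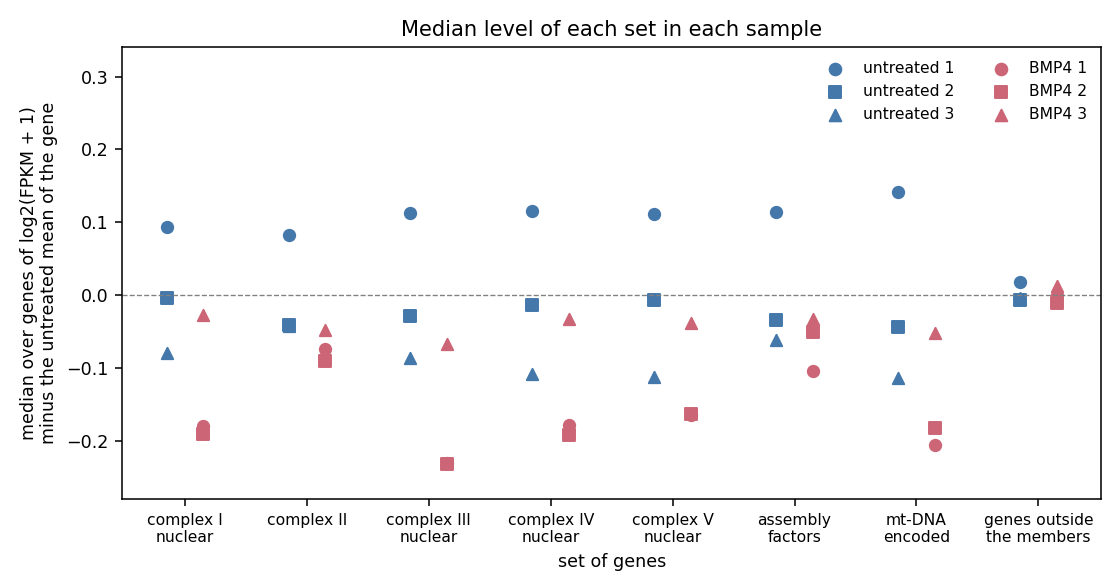
Median over the genes of each set of log2(FPKM + 1) minus the gene's untreated mean (y axis), for each set (x axis) and sample (blue, untreated; red, BMP4; marker shape, replicate number). Untreated 1 is the highest sample in every set of members, BMP4 3 lies above untreated 3 in all of them except complex II, and genes outside the members stay near 0.

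Single samples weighed on the calls. Without untreated 1 or untreated 2, 8 and 7 members were called lower, and without untreated 3, 21 were. Without BMP4 1 or BMP4 2 the count was 2 and 3, and without BMP4 3 it was 11. In these fits 9.62% to 13.2% of all tested genes were called lower. Uqcrq and Atp5j2 kept their call in each of the 6 fits that left out a sample. The other 11 called members lost it in at least 2 of them, and Sdha lost it in all 6.

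**Figure D2:**
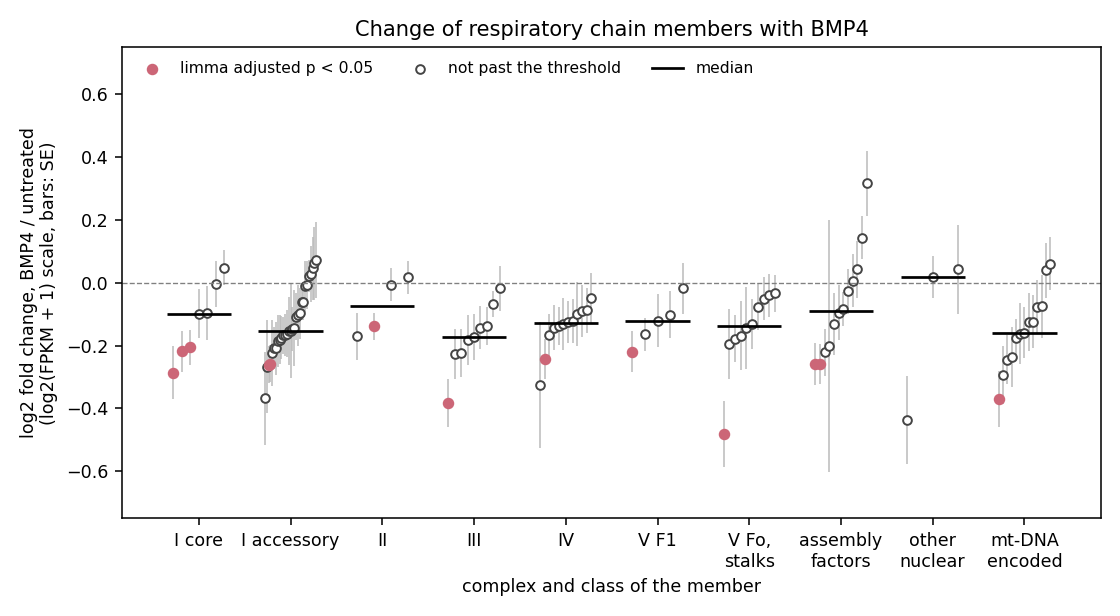
Log2 fold change of BMP4 against untreated on the log2(FPKM + 1) scale (y axis, bars: SE) for the 104 tested members by complex and class (x axis); filled points passed a limma adjusted p of 0.05, and the black line is the median. All filled points lie below 0, and the medians of the sets of complexes I to V and of the mt-DNA genes lie between -0.17 and -0.07.

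Complex I, which takes electrons from NADH, had 36 nuclear subunits with values. Of these, 5 (13.9%) were lower, against 14.3% of all tested genes. None was higher (0 also at an unadjusted p below 0.05). In 30 the log2 fold change was below 0, and the median over the 36 was -0.15. Among the 7 nuclear core subunits, which carry the flavin and the iron-sulfur clusters, 3 were lower, among them Ndufv2 and Ndufs8. Each of these 2 kept its call in only 1 of the 6 fits that left out a sample.

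Ndufv2, which holds an iron-sulfur cluster near the NADH site, was at 48.4, 45.7 and 43.7 FPKM in untreated and 37.7, 40.5 and 40.9 FPKM in BMP4 samples. The groups did not overlap, and its log2 fold change was -0.21 ± 0.06 (limma adjusted p = 0.0322). Ndufs8, which holds a pair of iron-sulfur clusters, was at 52.6, 49.4 and 46.3 FPKM in untreated and 39.6, 43.9 and 43.5 FPKM in BMP4 samples. It fell by 0.22 ± 0.06 on the log2 scale (limma adjusted p = 0.0427), with no overlap between the groups. The 4 core subunits that were not called had log2 fold changes from -0.10 to 0.05 with overlapping groups.

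Of the 29 accessory subunits, which surround the core and stabilise it, Ndufa13 and Ndufa5 were lower (6.9%, background 14.3%). Ndufa13, also known as Grim19, was at 70.1, 67.0 and 66.9 FPKM in untreated and 52.8, 56.8 and 60.5 FPKM in BMP4 samples, a log2 fold change of -0.26 ± 0.06 (limma adjusted p = 0.0152). Its exons overlap those of Tssk6 on the opposite strand, so without knowing how strand entered the counting its values are uncertain. Ndufa5, a subunit of the matrix arm, was at 35.1, 35.2 and 33.0 FPKM in untreated and 28.4, 27.1 and 30.6 FPKM in BMP4 samples, again -0.26 ± 0.06 (limma adjusted p = 0.016). In both genes the groups were apart, and BMP4 3 was the BMP4 sample nearest to the untreated ones. The accessory subunits with the highest deposited gene values, Ndufb9 (231 FPKM over the 6 samples) and Ndufa6 (179 FPKM), had log2 fold changes of -0.17 and -0.10 and were not called. Nor were those with the lowest, Ndufb2 (6.30 FPKM) and Ndufab1 (7.04 FPKM), the mitochondrial acyl carrier protein, at -0.01 and -0.18.

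Complex II, succinate dehydrogenase, is shared with the tricarboxylic acid cycle. Its flavoprotein Sdha was at 57.3, 56.4 and 56.2 FPKM in untreated and 49.8, 51.3 and 53.0 FPKM in BMP4 samples. The untreated samples were close together and all above the BMP4 samples, and the log2 fold change was -0.14 ± 0.04 (limma adjusted p = 0.0478), the smallest change among the called members. The iron-sulfur subunit Sdhb was at 53.0, 47.2 and 46.8 FPKM in untreated and 44.8, 39.7 and 45.9 FPKM in BMP4 samples; its groups did not overlap, and it did not pass (limma adjusted p = 0.132). The membrane anchors Sdhc and Sdhd, at 23.1 and 80.5 FPKM over the 6 samples, had log2 fold changes of -0.01 and 0.02. The median of the 4 subunits was -0.07.

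Complex III, which passes electrons from ubiquinol to cytochrome c, had 9 nuclear subunits, all with a log2 fold change below 0 and with a median of -0.17. Uqcrq, a small accessory subunit, had the smallest adjusted p of all members. It was at 70.3, 67.4 and 60.7 FPKM in untreated and 49.8, 47.1 and 54.7 FPKM in BMP4 samples. The lowest untreated sample was above the highest BMP4 sample, the mean was 23.6% lower, and the log2 fold change was -0.38 ± 0.08 (limma adjusted p = 0.00932). The other 8 were not called. Among them, cytochrome c1 (Cyc1) had a log2 fold change of -0.14 and Uqcr10 of -0.17, and these had the highest deposited gene values among the nuclear subunits (140 and 216 FPKM). The core proteins Uqcrc1 and Uqcrc2, with the lowest (29.5 and 27.8 FPKM), were at -0.18 and -0.07.

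Complex IV, cytochrome c oxidase, had 13 nuclear subunits. All 12 that were tested had a log2 fold change below 0, with a median of -0.13, and Cox6c was called lower. Cox6c, a subunit in the membrane, was at 58.3, 51.2 and 50.5 FPKM in untreated and 44.07, 45.39 and 45.04 FPKM in BMP4 samples. The BMP4 samples were close together and below every untreated sample (log2 fold change -0.24 ± 0.06, limma adjusted p = 0.0261). Its exons overlap Vps13b on the opposite strand. Cox8a and Cox6a1, with the highest deposited gene values among the nuclear subunits (281 and 257 FPKM), had log2 fold changes of -0.14 and -0.13 and were not called.

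Complex IV has pairs of subunits that differ between tissues, and here the forms of most tissues were far above the heart and muscle forms. Cox6a1 was at 257 FPKM over the 6 samples and its muscle form Cox6a2 at 3.90 FPKM. Cox7a2 was at 182 FPKM, and the muscle form Cox7a1 was at 0.888, 0.662 and 0.398 FPKM in untreated and was listed at 0 and at 0.505 and 1.22 FPKM in BMP4 samples. None of the 6 skeletal and heart muscle markers examined had a value. Cox7a2l, a factor that joins complexes III and IV into supercomplexes, was at 181, 155 and 158 FPKM in untreated and 172, 161 and 166 FPKM in BMP4 samples, which overlap (log2 fold change 0.02, limma adjusted p = 0.859). Ndufa4, a complex IV subunit despite its name, was at 50.3 FPKM, with a log2 fold change of -0.17 (limma adjusted p = 0.109). Its paralog Ndufa4l2, known as a target of hypoxia-inducible factor, was low, at 1.65, 1.73 and 1.66 FPKM in untreated and 1.07, 1.35 and 0.588 FPKM in BMP4 samples. All its BMP4 samples were below the untreated ones, and the log2 fold change of -0.44 ± 0.14 missed the threshold (limma adjusted p = 0.0549). The exons of Ndufa4l2 overlap those of Shmt2 on the opposite strand, so its low values are uncertain. Cox4i2, Cox6b2, Cox7b2, Cox8b, Cox8c and Ndufa11b were not analysed here.

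Complex V, the ATP synthase, had 15 nuclear subunits, all with a log2 fold change below 0 and with a median of -0.13. In its catalytic head, Atp5b, the catalytic beta subunit, was at 196, 182 and 175 FPKM in untreated and 148, 165 and 163 FPKM in BMP4 samples. The groups were apart, and Atp5b fell by 0.22 ± 0.06 on the log2 scale (limma adjusted p = 0.0427). In the membrane part and stalks, Atp5j2, the f subunit, was at 42.1, 38.0 and 34.6 FPKM in untreated and 24.2, 31.1 and 26.2 FPKM in BMP4 samples. This was the lowest log2 fold change among the members, -0.48 ± 0.10 (limma adjusted p = 0.0139), and the mean was 29.0% lower. The groups did not overlap, and BMP4 2 was the BMP4 sample nearest to the untreated ones.

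The proton-carrying c subunit of the rotor is made from 3 genes that encode one mature protein. By the sum of their transcripts, Atp5g2 was at 256 FPKM, Atp5g3 at 224 FPKM and Atp5g1 at 37.7 FPKM over the 6 samples. None was called at the gene level, with log2 fold changes of -0.18, -0.03 and -0.19, and the sign for Atp5g3 turned under the rescalings and without untreated 1. Atp5l, with the highest deposited gene value among the nuclear subunits (227 FPKM), was at -0.08, and Atp5j, with the second lowest (27.3 FPKM), was at -0.17. The lowest was Atp5g1.

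**Figure D3:**
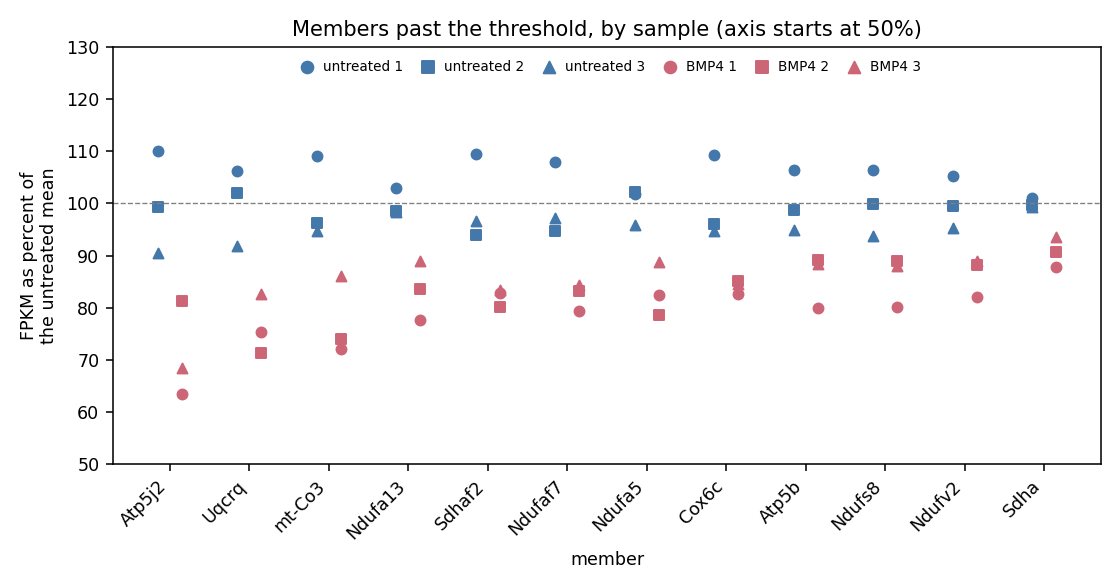
FPKM of called members in each sample as a percentage of its untreated mean (y axis, starting at 50%) for 12 of the 13 members (x axis, in order of log2 fold change; blue, untreated; red, BMP4; marker shape, replicate number). In all 12 the BMP4 samples lie below the untreated ones, from Atp5j2 with a mean 29.0% lower to Sdha with a mean 9.32% lower.

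The 12 assembly factors help to build complexes I and II and are not part of them. Their signs were less uniform than those of the tested nuclear subunits, of which 90.8% were below 0. Among the factors, 8 had a log2 fold change below 0 and 4 above, with a median of -0.09. Ndufaf7, known in human cells as a methyltransferase that acts on complex I, was at 14.1, 12.4 and 12.7 FPKM in untreated and 10.36, 10.87 and 11.01 FPKM in BMP4 samples. Sdhaf2, which inserts the flavin of Sdha, was at 13.9, 11.9 and 12.3 FPKM in untreated and 10.5, 10.2 and 10.6 FPKM in BMP4 samples. Both genes showed the same picture, with 3 BMP4 samples close together below the untreated ones, and each had a log2 fold change of -0.26 (limma adjusted p = 0.0226 and 0.027). The exons of Sdhaf2 overlap Cpsf7 on the opposite strand.

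The factors with the lowest levels went the other way without passing. Sdhaf1, which acts on the iron-sulfur clusters of Sdhb, was at 1.95, 1.96 and 2.41 FPKM in untreated and 2.41, 3.12 and 3.10 FPKM in BMP4 samples, a log2 fold change of 0.32 ± 0.10 (limma adjusted p = 0.0593). Sdhaf3 was at 0.938, 0.993 and 1.10 FPKM in untreated and 1.29, 1.14 and 1.23 FPKM in BMP4 samples, a log2 fold change of 0.14 (limma adjusted p = 0.166). Its groups did not overlap, whereas those of Sdhaf1 met at 2.41 FPKM. The exons of Sdhaf1 overlap another gene on the opposite strand. Ndufaf2 and Sdhaf4, with the highest levels (20.8 and 15.5 FPKM), were at -0.08 and -0.22 and were not called.

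The 13 genes of mitochondrial DNA were among the most abundant messages of the cells. They took 7 of the 10 highest places by mean FPKM and held 6.65% to 7.32% of all FPKM in untreated and 6.51% to 6.92% in BMP4 samples. Their sum was 20019, 18210 and 17102 FPKM in untreated and 16476, 16556 and 18287 FPKM in BMP4 samples, where BMP4 3 lay above untreated 2 and 3. The mean sum was 18444 ± 1472 FPKM (SD, n = 3) in untreated and 17106 ± 1023 FPKM (SD, n = 3) in BMP4 samples, a difference smaller than the untreated SD. The nuclear members summed to 5934 ± 425 FPKM in untreated and 5434 ± 331 FPKM in BMP4 samples. The change of the mean sum was -7.25% for the mitochondrial genes, -8.42% for the nuclear members and -2.38% for tested genes outside the members. The median log2 fold change was -0.16 over the 13 mitochondrial genes and -0.14 over the 91 tested nuclear ones. In that order, 1 of 13 (7.69%) and 12 of 91 (13.2%) were called lower, against 14.3% of all tested genes. No test of a difference between the 2 genomes or between complexes was made.

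mt-Co3, a core subunit of complex IV, was the called mitochondrial gene. It was at 835, 737 and 726 FPKM in untreated and 552, 567 and 659 FPKM in BMP4 samples. Every BMP4 sample lay below every untreated one, and its log2 fold change was -0.37 ± 0.09 (limma adjusted p = 0.0204). The other core subunits of that complex did not show this. mt-Co1, which holds the site of oxygen reduction and had the highest mean of all genes, was at 4568, 4596 and 4177 FPKM in untreated and 4305, 4486 and 4932 FPKM in BMP4 samples (log2 fold change 0.04, 95% interval -0.17 to 0.25). mt-Co2, which receives electrons from cytochrome c, was at 2174, 1894 and 1839 FPKM in untreated and 1699, 1753 and 1961 FPKM in BMP4 samples (log2 fold change -0.12, limma adjusted p = 0.354). In both the groups overlapped, with BMP4 3 the highest BMP4 sample.

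Of the 7 mitochondrial subunits of complex I, which form the proton-pumping membrane arm, none was called (limma; in mitochondrial DNA as a whole 5 genes were lower and 0 higher at an unadjusted p below 0.05). In mt-Nd3, mt-Nd5 and mt-Nd4l (42.9% of the 7) all BMP4 samples lay below all untreated ones, against 23.1% of all tested genes. mt-Nd3 was at 219.9, 186 and 176 FPKM in untreated and 157, 147 and 169 FPKM in BMP4 samples (log2 fold change -0.29, limma adjusted p = 0.0533). mt-Nd5 was at 1121, 981 and 931 FPKM in untreated and 831, 847 and 873 FPKM in BMP4 samples (-0.25, limma adjusted p = 0.0557). mt-Nd4l was at 344, 339 and 301 FPKM in untreated and 285, 289 and 296 FPKM in BMP4 samples (-0.18, limma adjusted p = 0.0756). These 3 came close to the threshold, and the others did not.

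mt-Nd2 was at 1289.5, 1081 and 1034 FPKM in untreated and 979.7, 963 and 1089.7 FPKM in BMP4 samples (log2 fold change -0.16). mt-Nd1 was at 2115, 1944 and 1792 FPKM in untreated and 1772, 1788 and 1986 FPKM in BMP4 samples (-0.08). mt-Nd4, which overlaps mt-Nd4l in the stretch printed above, was at 1582, 1375 and 1228 FPKM in untreated and 1294, 1263 and 1399 FPKM in BMP4 samples (-0.07). In these 3 the groups overlapped, since BMP4 3 was above at least 1 untreated sample. mt-Nd6, the one member read from the minus strand of mitochondrial DNA, was at 275, 252 and 276 FPKM in untreated and 314, 254 and 272 FPKM in BMP4 samples (0.06, limma adjusted p = 0.631). With mt-Co1 it was the mitochondrial gene without a value below 0, and both signs turned when single samples were left out. Polyadenylated RNA was sequenced, and how fully this captured mt-Nd6 is unknown here, so its level and change are uncertain.

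mt-Cytb, the cytochrome b of complex III, was at 2710.0, 2351 and 2232 FPKM in untreated and 1971, 1991 and 2221 FPKM in BMP4 samples. The groups were just apart, with BMP4 3 next to untreated 3, and the log2 fold change of -0.24 did not pass (limma adjusted p = 0.111). The overlapping complex V genes were mt-Atp6, at 1017, 932 and 881 FPKM in untreated and 788, 830.0 and 916 FPKM in BMP4 samples, and mt-Atp8, at 1768, 1543 and 1509 FPKM in untreated and 1529, 1379 and 1512 FPKM in BMP4 samples. Their log2 fold changes were -0.16 and -0.12, with overlapping groups.

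**Figure D4:**
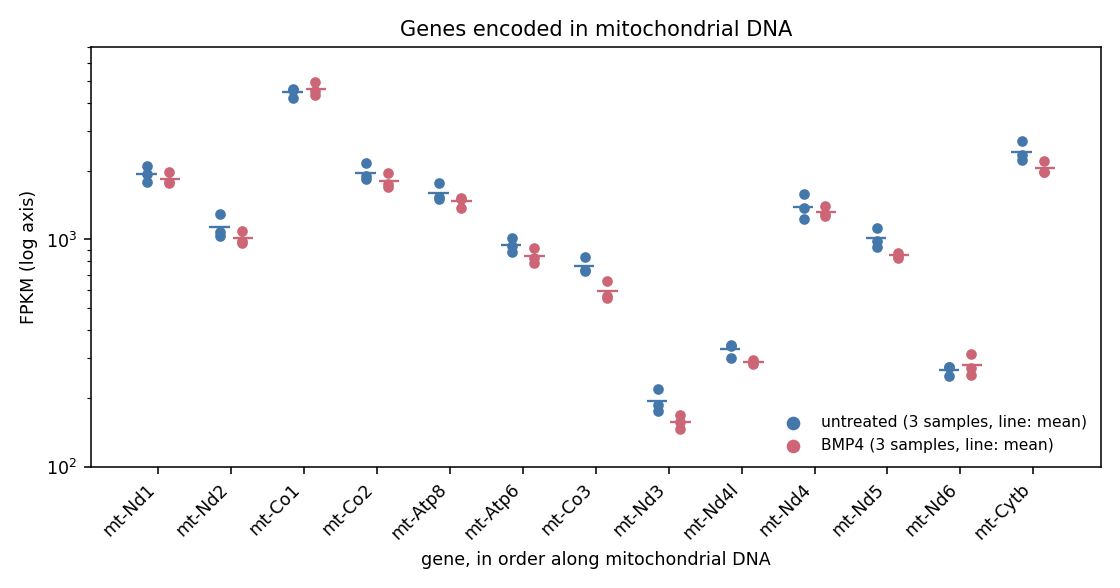
FPKM on a log axis (y axis) of the 13 genes of mitochondrial DNA in order along the molecule (x axis); points are samples (blue, untreated; red, BMP4) and lines are group means. mt-Co1 lies highest at a mean of 4511 FPKM and mt-Nd3 lowest at 176 FPKM. In 5 of the 13 genes (38.5%) all BMP4 samples lie below all untreated ones, against 23.1% of all tested genes. Among the 5 is mt-Co3, with a mean 22.6% lower.

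Levels between members can be compared only with care, because the deposited value of a gene was often below the sum of its own transcripts. The sum was within 1% of the gene value in 39 of 105 members and over 1.5 times it in 36, and was 5.97 times it in Cox6c. The 13 mitochondrial genes have the same value on both. By the sum of transcripts, the median was 1073 FPKM for the mitochondrial genes and 67.7 FPKM for the nuclear members. mt-Nd3, the lowest mitochondrial gene at 176 FPKM, was below several nuclear members, down to Ndufa6 at 179 FPKM. The 4 highest of these were Atp5b (355 FPKM), Cox6a1 (307 FPKM), Cox6c (293 FPKM) and Cox8a (281 FPKM). The assembly factors had a median of 6.65 FPKM, against 79.8 FPKM for the nuclear subunits. By median, the nuclear subunits ran from complexes IV (155 FPKM), V (141 FPKM) and III (120 FPKM) down to complex II (75.9 FPKM) and complex I (56.8 FPKM), and the ranges of these complexes overlapped. With the sum of transcripts as the gene value, an alternative chosen after seeing the data, 8 members were called lower, against 11.2% of all tested genes.

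**Figure D5:**
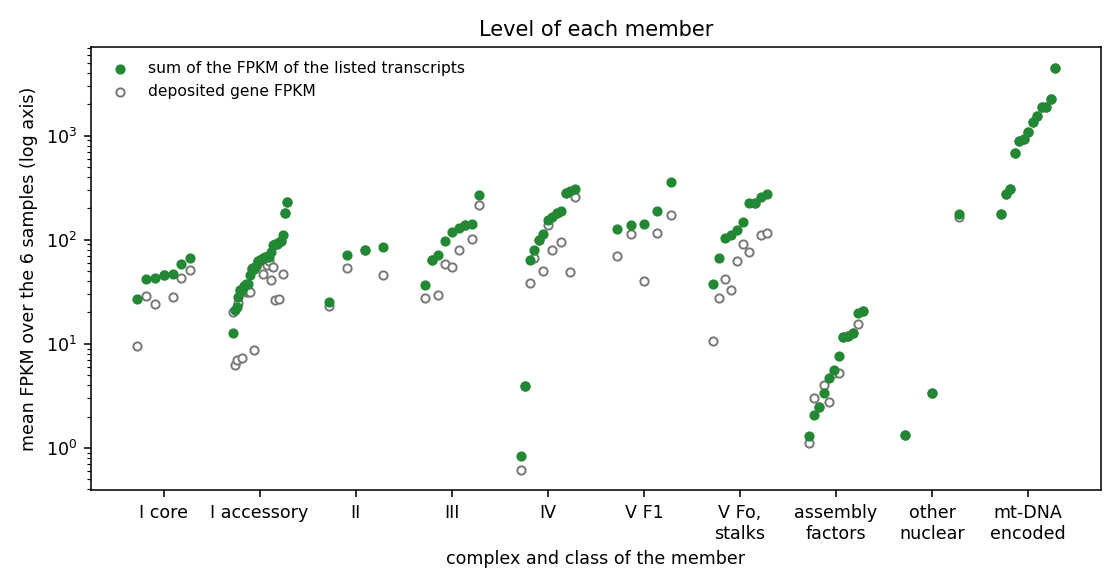
Mean FPKM over the 6 samples on a log axis (y axis) of all 105 members by complex and class (x axis), as the sum of the listed transcripts (green) and as the deposited gene value (open; hidden where equal). Mitochondrially encoded genes lie between 176 and 4511 FPKM and the nuclear members at 355 FPKM or less.

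At the level of transcripts, 174 were listed for the 105 members and 151 were tested. Of these, 4 were lower (background 4.53%) and 0 were higher (background 4.03%), by limma at an adjusted p below 0.05, and 31 and 2 were so at an unadjusted p below 0.05. Ndufb10, an accessory subunit of complex I, showed a difference between its transcripts. Ndufb10-001, with most of the gene's FPKM, was at 80.9, 71.2 and 68.4 FPKM in untreated and 44.2, 44.5 and 51.2 FPKM in BMP4 samples. It was lower in all BMP4 samples (log2 fold change -0.65 ± 0.09, limma adjusted p = 0.0123). Ndufb10-003 was at 4.08, 1.64 and 3.39 FPKM in untreated and 2.82, 3.25 and 26.9 FPKM in BMP4 samples, so its high value was in BMP4 3 alone. The gene as a whole was not called (log2 fold change -0.15, limma adjusted p = 0.491).

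The other called transcripts were the main ones of 2 called genes and a minor one of Atp5g1. Uqcrq-001 (log2 fold change -0.41, limma adjusted p = 0.0327) and Ndufa5-001 (-0.29, limma adjusted p = 0.0299) went the way of their genes. Atp5g1-003 was at 2.05, 2.22 and 1.88 FPKM in untreated and 0.983, 0.792 and 0.684 FPKM in BMP4 samples (-0.75, limma adjusted p = 0.0382), and reached the mean of 1 FPKM needed for testing only through the untreated samples. Atp5g1-002, with most of the FPKM of Atp5g1, was at 27.9, 29.8 and 21.9 FPKM in untreated and 23.95, 18.98 and 51.53 FPKM in BMP4 samples, where BMP4 3 again stood apart. Transcripts of a gene share reads, and in 23 of the 33 members with at least 2 tested transcripts the log2 fold changes had both signs.

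Promoters were available for 74 of 105 members (RefSeq, GRCm38.p6, 250 bases before to 50 after the start) and were searched on both strands for motifs of 3 factors known to act on respiratory chain genes. The NRF1 motif, GCGCA and GCGC with any 1 base between them, was in 21 of the 74 (28.4%), against 12.2% of the 8924 listed genes with a promoter. The GABPA (ETS) motif CCGGAAG was in 20 (27%), against 20.8%, and the YY1 motif AAGATGGCG in 7 (9.46%), against 3.8%. At least 1 of the 3 motifs was in 41 of the 74 members (55.4%), against 32.6% of the listed genes, and in 5 of the 9 called members with a promoter, a share like that of the members in general. A promoter of a called member is shown for each motif, with a second for NRF1, since Sdha holds 3 copies and Ndufa5 holds 1. All 4 genes lie on the minus strand, and the sequences are printed 5′ to 3′ on it, with the motif (for Ndufs8 its reverse complement) in capitals.
Sdha, NRF1 (chr13:74350191-74350490): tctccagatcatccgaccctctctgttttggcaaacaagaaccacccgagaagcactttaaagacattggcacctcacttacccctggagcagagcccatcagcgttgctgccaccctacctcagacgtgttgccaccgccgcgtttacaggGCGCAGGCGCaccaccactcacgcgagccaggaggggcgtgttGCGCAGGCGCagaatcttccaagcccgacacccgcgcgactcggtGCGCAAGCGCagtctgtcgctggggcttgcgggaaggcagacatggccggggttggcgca
Ndufa5, NRF1 (chr6:24527641-24527940): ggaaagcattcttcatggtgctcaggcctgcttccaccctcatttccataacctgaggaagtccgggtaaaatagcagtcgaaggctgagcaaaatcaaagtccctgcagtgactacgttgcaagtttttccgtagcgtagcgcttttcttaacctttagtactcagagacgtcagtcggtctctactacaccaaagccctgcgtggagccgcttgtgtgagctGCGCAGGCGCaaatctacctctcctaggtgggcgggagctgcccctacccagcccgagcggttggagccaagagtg
Ndufs8, GABPA (chr19:3912725-3913024): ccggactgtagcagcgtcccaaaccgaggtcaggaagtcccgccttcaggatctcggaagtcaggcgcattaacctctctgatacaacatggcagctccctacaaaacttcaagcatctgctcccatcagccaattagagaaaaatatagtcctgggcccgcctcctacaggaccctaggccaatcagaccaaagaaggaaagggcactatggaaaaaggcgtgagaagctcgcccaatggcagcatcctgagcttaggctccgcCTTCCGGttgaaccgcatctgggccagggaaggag
Atp5j2, YY1 (chr5:145191492-145191791): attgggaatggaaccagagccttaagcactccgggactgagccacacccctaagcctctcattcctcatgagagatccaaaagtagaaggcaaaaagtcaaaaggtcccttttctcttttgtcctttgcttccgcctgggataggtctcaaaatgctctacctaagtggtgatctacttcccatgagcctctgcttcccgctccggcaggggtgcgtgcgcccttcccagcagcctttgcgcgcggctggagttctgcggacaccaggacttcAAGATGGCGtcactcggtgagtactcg
The matches describe these letters only, and binding was not measured.

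Among 15 tested regulators of mitochondrial biogenesis, 4 were higher (background 13.6%) and 0 lower (background 14.3%) by limma. At an unadjusted p below 0.05, 1 was lower. Ppargc1a, the coactivator PGC-1alpha, which drives respiratory chain genes in muscle and brown fat, was at 0.243, 0.157 and 0.236 FPKM in untreated and 1.85, 1.88 and 1.65 FPKM in BMP4 samples. All BMP4 samples were well above the untreated ones at these low levels (log2 fold change 1.21 ± 0.07, limma adjusted p = 2.91e-05). Ppargc1a reached the mean of 1 FPKM needed for testing only through the BMP4 samples, where it is high, so its call and its place in the count are a description. Prkaa1, a catalytic subunit of the energy sensor AMPK, went from 29.5 ± 2.11 to 39.1 ± 0.62 FPKM (SD, n = 3 each; limma adjusted p = 0.00283). Gabpb1, the partner of GABPA, went from 4.84 ± 0.148 to 6.20 ± 0.20 FPKM (SD, n = 3 each; limma adjusted p = 0.00898). The fourth was Gabpa itself (log2 fold change 0.26, limma adjusted p = 0.0177), named after its value was seen. Its exons overlap those of the member Atp5j on the opposite strand, so the values of both genes are uncertain.

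Of 18 tested genes for the upkeep and transcription of mitochondrial DNA, 1 was higher (background 13.6%) and 2 were lower (background 14.3%). Tfb1m, a methyltransferase of mitochondrial ribosomal RNA, was lower (log2 fold change -0.60, limma adjusted p = 0.00676), as was Top1mt, the mitochondrial topoisomerase I (-0.46, limma adjusted p = 0.0017). Primpol, a primase that also acts in mitochondria, was higher (0.35, limma adjusted p = 0.0483). Of 20 genes for mitochondrial RNA processing and stability, 0 were called (limma; 4 lower and 0 higher at an unadjusted p below 0.05).

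The assembly factors that the name rule leaves out were called lower or not at all (background 14.3% lower and 13.6% higher). For complex I, 1 of 8 was lower, Tmem126a (log2 fold change -0.62, limma adjusted p = 0.0141). For complex III, 1 of 6 was lower, Uqcc2, needed to make cytochrome b (-0.30, limma adjusted p = 0.0377). For complex IV, 4 of 24 were lower, among them Higd1a (-0.38), Coa7 (-0.73) and Coa3 (-0.36), with limma adjusted p of 0.0144, 0.017 and 0.0196. Coa7, at 2.24 FPKM in untreated and 0.921 FPKM in BMP4 samples on average, reached the mean needed for testing only through the untreated samples. For complex V, 0 of 8, a list that also holds the member Atp5k, were called (limma; 0 at an unadjusted p below 0.05 in either direction). At an unadjusted p below 0.05, 0 of those for complexes I, III and IV were higher.

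Of 16 tested electron carriers and other donors to ubiquinone, 3 were lower (background 14.3%) and 1 was higher (background 13.6%). Cycs, cytochrome c, was at 39.9, 36.6 and 36.3 FPKM in untreated and 31.2, 29.2 and 33.5 FPKM in BMP4 samples, a log2 fold change of -0.26 (limma adjusted p = 0.0243). Etfb and Etfdh, which bring electrons from fatty acid oxidation to ubiquinone, were lower as well (-0.46 and -0.48, limma adjusted p = 0.00312 and 0.000315). Sqrdl, the sulfide quinone oxidoreductase, was at 5.52, 6.05 and 5.27 FPKM in untreated and 11.7, 12.1 and 11.5 FPKM in BMP4 samples (0.95 ± 0.06, limma adjusted p = 5.72e-05). In each of these 4 genes the groups were apart.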

How the data were processed

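Polyadenylated RNA of 6 samples (3 untreated, 3 BMP4) was sequenced as paired ends from strand-specific libraries, per the labels' protocols. The submitters' processing notes name StringTie, HISAT2, cutadapt and FastQC, and the build GRCm38; versions, annotation release, and how strand and multiply mapped reads were handled were not given in the sources used here. Both tables hold FPKM as deposited, one by gene and one by transcript, per the file headers; 1 emptied line in each was skipped. Many nuclear members have processed pseudogenes, and mitochondrial DNA has nuclear copies, so reads they share make levels uncertain.

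Genes and transcripts averaging 1 FPKM or more across all 6 samples were tested on log2(FPKM + 1) with limma 3.58.1 in R 4.3.3 (two-sided moderated test, variance trend), and p-values were adjusted by Benjamini-Hochberg over all 10932 genes or 17213 transcripts, with a threshold of 0.05. Every adjusted p in the text is from that test. The script was tested on simulated data. Alternatives were the pseudocount, filter, scaling, variance model, threshold, replicate block and leaving out each sample.

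Members and lists were chosen with earlier results of these data known. The rule for named genes took every mt- gene; up to 4 called members per direction, the 2 highest and the 2 lowest by mean FPKM in each complex and in the assembly factors; all tissue paralogs; up to 3 called genes per direction in each list; and up to 6 called transcripts. Numbers were not adjusted over the members alone. The values of 1 called member are not reported here.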

Additional observations from a re-analysis of the deposited data

How the results depend on the processing

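The 13 members called lower became 8 without the variance trend (13.7% of all tested genes), 1 at an adjusted p below 0.01 (7.86% of all tested genes), and 8 with the sum of transcripts as gene value. With the replicate number as a block, 3 members (9.57% of all tested genes) and 0 transcripts were called lower. Same-numbered samples did not deviate together over all genes (r of -0.15, 0.05 and -0.22). Over the members, r was -0.15, 0.37 and -0.37. Whether the same number marks a shared culture or day cannot be told from these values. Leaving out single samples gave 2 to 21 members lower and 0 to 1 higher. In these fits 9.62% to 13.2% of all tested genes were lower and 9.02% to 13% higher. Transcripts called lower numbered 0 to 4 and higher 0 to 1, and medians ran from -0.192 to -0.0381 for complex V. The shares of all tested transcripts in these fits and in the block fit are not given here. With values rescaled to equal sums, over all genes or over those outside mitochondrial DNA, 19 members were lower (12.7% and 13% of all tested genes), the median of all tested genes moved to 0.0347 and 0.0305, and Atp5g3 turned to 0.00714 and 0.00235. Other log2 fold changes also changed sign without single samples, none of them called: they ran from -0.0157 to 0.0824 for mt-Co1 (-0.00473 without untreated 3), from -0.163 to 0.0199 for mt-Nd4, from -0.0252 to 0.128 for mt-Nd6, from -0.0216 to 0.0879 for Cox7a2l and from -0.0900 to 0.00367 for Atp5g3. Median log2 fold changes of the members in each complex, the assembly factors and both genomes stayed below 0 under every alternative run. The causes were not tested. Depth is unknown, so low members such as Cox7a1 and Ndufa4l2 have no counting interval.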

Other observations

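Genes next to the respiratory chain moved in both directions. Of 24 tested genes of the tricarboxylic acid cycle and pyruvate dehydrogenase, 3 were higher (background 13.6%) and 2 lower (background 14.3%) with BMP4. Dlst, the succinyltransferase of the 2-oxoglutarate dehydrogenase complex, went from 34.1 ± 1.43 to 45.6 ± 0.831 FPKM (SD, n = 3 each; limma adjusted p = 0.000797). Dlat, the acetyltransferase of pyruvate dehydrogenase, went from 13.3 ± 0.85 to 17.0 ± 1.13 FPKM (limma adjusted p = 0.0117). Pdk2, a kinase that inhibits that complex, was also higher (log2 fold change 0.44, limma adjusted p = 0.00422), and Pdp1, a phosphatase that activates it, was lower (-0.20, limma adjusted p = 0.039). Suclg2, a subunit of succinyl-CoA ligase, was lower (-0.48, limma adjusted p = 0.0243).

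Of 11 tested genes for uncoupling, superoxide and nucleotide exchange, 2 were higher (background 13.6%) and 2 lower (background 14.3%). The adenine nucleotide carriers went opposite ways: Slc25a4 was at 164, 148 and 147 FPKM in untreated and 132, 125 and 139 FPKM in BMP4 samples (limma adjusted p = 0.0446), and Slc25a5 was at 83.3, 72.9 and 71.4 FPKM in untreated and 93.9, 88.2 and 93.8 FPKM in BMP4 samples (limma adjusted p = 0.0212). Prdx5, a peroxiredoxin, was higher (log2 fold change 0.42, limma adjusted p = 0.000576) and Tspo, a protein of the outer membrane, was lower (-0.37, limma adjusted p = 0.0168). Of 16 genes for cristae and the inner membrane, Phb (prohibitin) and Chchd3 were lower (-0.30 and -0.25, limma adjusted p = 0.00938 and 0.0292). Apool was higher (0.34, limma adjusted p = 0.0481). Over all tested genes, 14.3% were lower and 13.6% higher.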
